A study of Mus musculus with 10 samples.

Results

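The nuclear factor I genes Nfib, Nfix, Nfic and Nfia, together with Mpdz, a neighbor of Nfib on chromosome 4, were followed through lung tumors and liver metastases of the RPR2 mouse model of small cell lung cancer. These 5 genes were chosen by name from the 35288 genes of the expression table. All 5 were among the 15503 genes tested, whose mean over the libraries reached 1 TPM. Levels are in TPM, a unit that accounts for gene length and library total, so levels of different genes can be compared.

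The study sequenced polyA-selected RNA from 10 tumors of 6 mice, 3 of each genotype. The groups were Nfib-floxed metastases (n = 2), RPR2 metastases (n = 2), Nfib-floxed lung tumors (n = 3) and RPR2 lung tumors (n = 3). The metastases of JHK1398 and JHK1399 (Nfib-floxed) and of JHK1373 and JHK1394 (RPR2) each came from a mouse that also gave a lung tumor, whereas JHK997 (Nfib-floxed) and JHK1548 (RPR2) gave a lung tumor only. RPR2 mice lack the tumor suppressors Rb1, Trp53 and Rbl2 in the tumor, and these deletions are shared by all 4 groups. The second genotype, RPR2;Nfibf/f, called Nfib-floxed here, carries floxed alleles of Nfib in addition. The labels used here give neither the exons of Nfib that are floxed, nor the Cre and what drives it, nor the age of the mice. Tumors were macrodissected at morbidity, so a library holds tumor cells together with cells of the host organ.

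Nuclear factor I proteins are transcription factors that bind DNA as homodimers or heterodimers through a conserved amino-terminal domain. NFIB is needed for maturation of the lung in mice, and its gene is a recurrent target of amplification in mouse small cell lung cancer. NFIA is best known for its role in gliogenesis, NFIX for brain and muscle development and NFIC for tooth root formation. MPDZ, also called MUPP1, is an unrelated scaffold protein with many PDZ domains that is found at tight junctions and synapses.

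The 4 family genes are paralogs, and the stretches below show how far their messages are alike where they are most alike. They are the most similar ungapped 60 bases of the aligned coding sequences, read from the GENCODE annotation of genome build GRCm38. Each lies in exon 2 of the transcript used. Nfib is at chr4:82498658-82498717 on the minus strand, Nfia at chr4:97783134-97783193 on the plus strand, Nfic at chr10:81420687-81420746 on the minus strand and Nfix at chr8:84772204-84772263 on the minus strand. Sequences run 5′ to 3′ along the message, and capitals mark bases that differ from Nfib.
Nfib: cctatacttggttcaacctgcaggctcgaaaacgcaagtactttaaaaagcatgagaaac
Nfix: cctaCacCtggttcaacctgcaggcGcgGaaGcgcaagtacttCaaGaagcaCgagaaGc
Nfic: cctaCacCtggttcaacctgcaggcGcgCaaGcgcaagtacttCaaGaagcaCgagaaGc
Nfia: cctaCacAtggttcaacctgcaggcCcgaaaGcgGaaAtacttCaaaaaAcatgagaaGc
Even here, 48 of the 60 bases were the same in all 4 genes, and each of Nfix, Nfic and Nfia differed from Nfib at 9.

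Over the whole aligned coding sequence, Nfib was 65.4% identical to Nfia, 63.8% to Nfix and 63.1% to Nfic. The closest pair was Nfia and Nfix, at 70.6%. No 31-base word of an annotated Nfib, Nfia or Mpdz transcript occurred in another of these genes or in Patj, the paralog of Mpdz. Nfic and Nfix shared 2 such words. Since nothing used here tells whether the libraries kept strand, reads of a gene and of an antisense neighbor cannot be told apart. Nfix is overlapped on the other strand by Lyl1, which reached at most 11.9 TPM, and by G430095P16Rik, which reached at most 6.98 TPM. The measured opposite-strand neighbors within Nfib (Gm11268) and Nfia (E130114P18Rik) stayed at or below 1.16 TPM and 0.699 TPM. The lower Nfix levels lay within the range that its neighbors reached.

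Libraries differed in the levels of host cell markers. Among metastases, the summed level of 12 hepatocyte markers was 106 TPM (JHK1398) and 2646 TPM (JHK1399) in the Nfib-floxed mice and 9342 TPM (JHK1394) and 9657 TPM (JHK1373) in RPR2 mice. All 12 were lower in both Nfib-floxed than in both RPR2 metastases, and none was at 0 in any library. Lung tumors ranged from 57.5 to 289 TPM, so the metastasis of JHK1398 lay within the lung range for hepatocyte markers. It had the lowest club cell level of the 10 libraries, 9.88 TPM over 5 markers, against 1677 to 60565 TPM in lung tumors. It correlated at 0.916 with the other Nfib-floxed metastasis and at 0.932 with the lung tumor of the RPR2 mouse JHK1373 (Pearson r of log2(TPM + 1)). With the lung tumor of its own mouse it correlated at 0.809, its lowest value with any library. Neither trait was particular to it. The lung tumor of JHK1398 was also the lowest match of the metastases of JHK1399 (0.825), JHK1373 (0.755) and JHK1394 (0.742). The metastasis of JHK1399 correlated at 0.914 with the lung tumor of JHK1373 and at 0.909 with that of its own mouse. Neuroendocrine markers were present in every library, with a summed level over 11 markers of 7670 to 61349 TPM in Nfib-floxed and 2543 to 3718 TPM in RPR2 metastases. Lung tumors had 9394 to 75349 TPM (Nfib-floxed) and 12481 to 22047 TPM (RPR2). Calca, the calcitonin gene, made up 5470 and 57529 TPM of these sums in Nfib-floxed metastases and 545 and 1410 TPM in RPR2 metastases. Without Calca, the other 10 markers summed to 2201 and 3820 TPM in Nfib-floxed metastases, against 1999 and 2308 TPM in RPR2 metastases, which overlap. Lung tumors had 3350 to 3472 TPM (Nfib-floxed) and 3319 to 3851 TPM (RPR2) without it. In such bulk samples, fewer cells of a type and less RNA per cell cannot be told apart.

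Nfib (ENSMUSG00000008575, chromosome 4, 82290173 to 82705750, minus strand), the gene with the floxed alleles, was detected in every library. Its level was 46.1 TPM (JHK1398) and 41.3 TPM (JHK1399) in the Nfib-floxed metastases, against 62.8 TPM (JHK1373) and 643 TPM (JHK1394) in RPR2 metastases. Nfib-floxed lung tumors had 38.6 TPM (JHK997), 38.0 TPM (JHK1398) and 26.5 TPM (JHK1399), against 85.3 TPM (JHK1373), 28.3 TPM (JHK1394) and 118 TPM (JHK1548) in RPR2 lung tumors. All 5 Nfib-floxed libraries thus lay in a narrow band, and the RPR2 metastasis of JHK1394 stood above every other library. The genotypes did not overlap in metastases and overlapped in lung tumors through the RPR2 tumor of JHK1394. Deleting some exons can leave the total transcript level in place, so the values do not test whether Nfib was lost.

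Nfix (ENSMUSG00000001911, chromosome 8, 84699876 to 84800344, minus strand) had 2.11 TPM (JHK1398) and 20.4 TPM (JHK1399) in the Nfib-floxed metastases, against 41.4 TPM (JHK1373) and 172 TPM (JHK1394) in RPR2 metastases. In lung tumors it had 10.2 TPM (JHK997), 9.40 TPM (JHK1398) and 56.7 TPM (JHK1399) in the Nfib-floxed mice, against 8.99 TPM (JHK1373), 15.8 TPM (JHK1394) and 18.8 TPM (JHK1548) in RPR2 mice. The RPR2 metastases were above both Nfib-floxed metastases, and the highest lung tumor was the Nfib-floxed one of JHK1399.

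Nfic (ENSMUSG00000055053, chromosome 10, 81396186 to 81455635, minus strand) varied least. It had 38.2 TPM (JHK1398) and 58.5 TPM (JHK1399) in the Nfib-floxed metastases, against 47.2 TPM (JHK1373) and 84.8 TPM (JHK1394) in RPR2 metastases. Its lung tumor levels were 68.3, 47.4 and 69.0 TPM in Nfib-floxed mice (JHK997, JHK1398, JHK1399), against 68.7, 63.1 and 50.6 TPM in RPR2 mice (JHK1373, JHK1394, JHK1548). All groups overlapped for Nfic.

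Nfia (ENSMUSG00000028565, chromosome 4, 97772734 to 98118874, plus strand) was the lowest family member in 9 of the 10 libraries, the exception being the Nfib-floxed metastasis of JHK1398, where Nfix was lower. It had 5.40 TPM (JHK1398) and 1.32 TPM (JHK1399) in the Nfib-floxed metastases, against 4.76 TPM (JHK1373) and 2.31 TPM (JHK1394) in RPR2 metastases. Its lung tumor levels were 2.75, 6.03 and 1.31 TPM in Nfib-floxed mice (JHK997, JHK1398, JHK1399), against 1.45, 4.89 and 2.19 TPM in RPR2 mice (JHK1373, JHK1394, JHK1548). Groups overlapped in every comparison of Nfia.

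Mpdz (ENSMUSG00000028402, chromosome 4, 81278500 to 81442815, minus strand) had 2.15 TPM (JHK1398) and 2.89 TPM (JHK1399) in the Nfib-floxed metastases, against 62.0 TPM (JHK1373) and 378 TPM (JHK1394) in RPR2 metastases. Nfib-floxed lung tumors had 7.92 TPM (JHK997), 4.53 TPM (JHK1398) and 4.30 TPM (JHK1399), against 18.8 TPM (JHK1373), 7.46 TPM (JHK1394) and 9.99 TPM (JHK1548) in RPR2 lung tumors. Both RPR2 metastases were above all other libraries, and both Nfib-floxed metastases were below all other libraries. The lung groups overlapped through JHK997 and JHK1394.

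**Figure D1:**
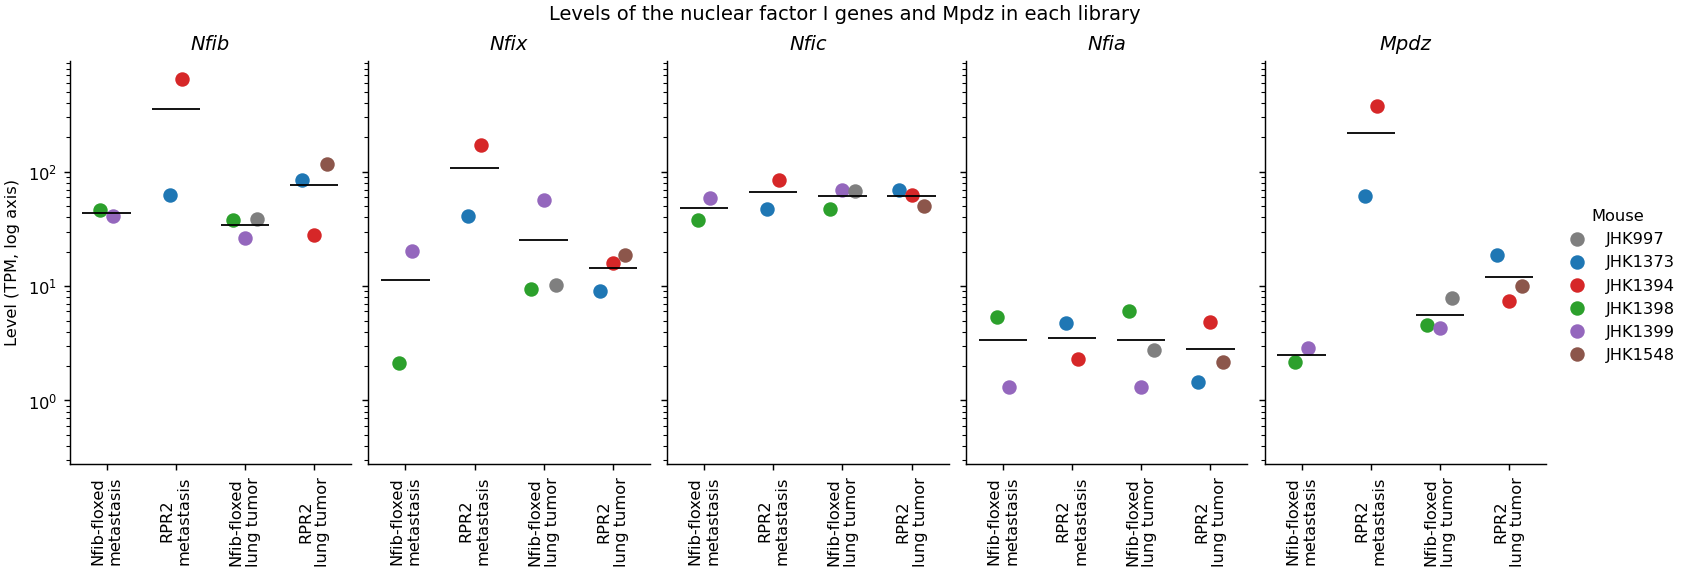
Level of each gene in TPM (vertical log axis) in the 4 groups, with 1 point per library colored by mouse and a line at the group mean. The RPR2 metastasis of JHK1394 had the highest Nfib (643 TPM), Nfix (172 TPM), Nfic (84.8 TPM) and Mpdz (378 TPM) of the 10 libraries and no high Nfia (2.31 TPM).

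The 5 genes differed in how widely they ranged. The highest level was 176 times the lowest for Mpdz, 81.9 times for Nfix, 24.3 times for Nfib, 4.59 times for Nfia and 2.22 times for Nfic. By group mean (± SD), Nfib had 43.7 ± 3.43 TPM in Nfib-floxed and 353 ± 410 TPM in RPR2 metastases, with 34.4 ± 6.85 TPM in Nfib-floxed and 77.1 ± 45.3 TPM in RPR2 lung tumors. The SD of the RPR2 metastases exceeded their mean. Of neighbors in the order of group means, the ranges of Nfib in Nfib-floxed metastases and Nfib-floxed lung tumors did not overlap, and those of the other neighbors did. Mean Nfix was 11.2 ± 12.9 TPM in Nfib-floxed and 107 ± 92.6 TPM in RPR2 metastases, with 25.4 ± 27.1 TPM in Nfib-floxed and 14.5 ± 5.03 TPM in RPR2 lung tumors. All neighbors in the order of these means overlapped, the RPR2 metastases with the Nfib-floxed lung tumors through JHK1399. Mean Mpdz was 2.52 ± 0.524 TPM in Nfib-floxed and 220 ± 223 TPM in RPR2 metastases, with 5.58 ± 2.03 TPM in Nfib-floxed and 12.1 ± 5.94 TPM in RPR2 lung tumors. For Mpdz, the only neighbors in this order that overlapped were the 2 lung groups. Mean Nfic was 48.4 ± 14.4 TPM in Nfib-floxed and 66.0 ± 26.5 TPM in RPR2 metastases, with 61.6 ± 12.2 TPM in Nfib-floxed and 60.8 ± 9.26 TPM in RPR2 lung tumors. Mean Nfia was 3.36 ± 2.89 TPM in Nfib-floxed and 3.54 ± 1.74 TPM in RPR2 metastases, with 3.36 ± 2.42 TPM in Nfib-floxed and 2.84 ± 1.81 TPM in RPR2 lung tumors. No 2 groups were apart for Nfic or Nfia.

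The make-up of the family transcript pool also differed between libraries. The 4 family genes summed to 91.9 TPM (JHK1398) and 122 TPM (JHK1399) in the Nfib-floxed metastases, against 156 TPM (JHK1373) and 902 TPM (JHK1394) in RPR2 metastases. Lung tumors summed to between 101 and 153 TPM in Nfib-floxed and between 112 and 189 TPM in RPR2 mice. Apart from the metastasis of JHK1394, the family sum therefore stayed within 91.9 to 189 TPM. Nfib was 17.2% to 37.7% of the sum in Nfib-floxed lung tumors and 25.2% to 62.2% in RPR2 lung tumors. In metastases Nfib was 50.2% (JHK1398) and 34.0% (JHK1399) of the sum in Nfib-floxed mice, against 40.2% (JHK1373) and 71.2% (JHK1394) in RPR2 mice. Nfic was the largest share in all 3 Nfib-floxed lung tumors, at 45.0% to 57.0%.

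The Nfib genotype was then compared in lung tumors, as the difference of mean log2(TPM + 1), Nfib-floxed minus RPR2, in a limma model of all 10 libraries. A gene was called at a Benjamini-Hochberg adjusted p under 0.05 over the 15503 genes tested. Adding 1 before taking the log shrinks the differences of weakly expressed genes. None of the 5 genes was called, against a background of 0% of all genes. Limma called 0 of 15503 genes, with 1230 at an unadjusted p under 0.05 and a smallest adjusted p of 0.272. The change of Nfib was -0.94 ± 0.74 (SE, limma adjusted p = 0.735) and that of Mpdz -0.94 ± 0.61 (adjusted p = 0.682), beside a median over all genes of -0.10. Nfix (0.34 ± 0.85), Nfia (0.14 ± 0.58) and Nfic (0.01 ± 0.31) had adjusted p values of 0.929, 0.963 and 0.997. In two-sided exact permutation tests of the same differences (n = 3 and 3), p was 0.3 for Nfib, 0.2 for Mpdz, 0.8 for Nfix, 0.8 for Nfia and 0.9 for Nfic, and 20 arrangements allow no p below 0.1. All 5 genes overlapped between the lung groups, whereas 14.5% of all genes did not overlap there.

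In metastases, Mpdz fell and the family genes did not pass the threshold. Mpdz was lower in both Nfib-floxed metastases than in both RPR2 metastases, with a log2 change of -5.46 ± 0.74 (limma adjusted p = 0.00496). It was 1 of the 316 genes called, 2.04% of all genes, of which 175 were higher and 141 lower in Nfib-floxed metastases. The call rests on 2 mice against 2 and on a spread pooled over the 4 groups. It was lost when the 2 groups were fitted alone (adjusted p = 0.185), where 0 genes were called. Without the metastasis of JHK1398, the change of Mpdz was -5.31, and without that of JHK1394 it was -4.17. Each omission left a single metastasis in its group.

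Nfix had the next largest difference in metastases, -3.39 ± 1.04, which was not called (limma adjusted p = 0.145). Without the metastasis of JHK1398, which left a single Nfib-floxed metastasis, it was -2.003. Nfib stood at -2.18 ± 0.91 (limma adjusted p = 0.326), and this value depended on the RPR2 metastases. It was -3.85 without that of JHK1373 and -0.52 without that of JHK1394, each of which left a single RPR2 metastasis. Nfic (-0.41 ± 0.38, adjusted p = 0.791) and Nfia (-0.18 ± 0.71, adjusted p = 0.978) were not called. Nfib, Nfix and Mpdz did not overlap between the genotypes in metastases, 3 of 5 genes, and 45.8% of all genes did not overlap there. All 12 hepatocyte markers were lower in Nfib-floxed metastases, as given above. So were 5 of 8 endothelial, 5 of 8 macrophage, 4 of 7 fibroblast, 3 of 6 mural and 3 of 5 club cell markers. In these lists, only 1 fibroblast marker was higher in both Nfib-floxed metastases. The part of host cells in the differences of Nfib, Nfix and Mpdz was not tested. Within RPR2, the metastases of JHK1394 (643 TPM of Nfib) and JHK1373 (62.8 TPM) had hepatocyte levels of 9342 and 9657 TPM. Both are of the RPR2 genotype, so these values do not bear on the difference between genotypes. With the marker genes of other cell types removed and the rest rescaled, the change of Mpdz was -5.50 (adjusted p = 0.00457). The rescaling multiplied all remaining genes of a library by the same factor. It left any Mpdz reads of host cells in place, so it does not test their part.

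Within RPR2 mice, Mpdz was higher in both metastases than in all 3 lung tumors, with a log2 change of 3.66 ± 0.68 (metastasis minus lung tumor, limma adjusted p = 0.0109). Limma called 869 genes in this comparison, 5.61% of all genes, 316 higher and 553 lower in metastases. After quantile normalization, which moved the median change over all genes to 0.05 from -0.15, the calls were 407 higher and 408 lower. The call of Mpdz was lost without the metastasis of JHK1394, where its change was 2.36 (adjusted p = 0.110). It was also lost with mouse as a fixed block, at 3.58 (adjusted p = 0.0697), and narrowly when the 2 groups were fitted alone (adjusted p = 0.0503). All 12 hepatocyte markers were also higher in both RPR2 metastases than in the 3 RPR2 lung tumors, and their part in this difference was not tested. On rescaling without the markers of other cell types, the change of Mpdz was 3.67 (adjusted p = 0.00992). As in the genotype comparison, the rescaling left any Mpdz reads of host cells in place.

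The family genes were not called in this comparison. Nfix had a change of 2.52 ± 0.95 (limma adjusted p = 0.174), which passed with mouse as a fixed block, at 2.73 (adjusted p = 0.0378). The fixed block rests on the pairs of JHK1373 (2.09) and JHK1394 (3.37) alone, since JHK1548 gave no metastasis. Nfib stood at 1.60 ± 0.83 (adjusted p = 0.341). Its change was 3.27 without the metastasis of JHK1373 and -0.07 without that of JHK1394, each of which left a single RPR2 metastasis. Nfia (0.29 ± 0.65, adjusted p = 0.881) and Nfic (0.07 ± 0.35, adjusted p = 0.949) had small differences. Nfix and Mpdz did not overlap between RPR2 metastases and RPR2 lung tumors, 2 of 5 genes, beside 46.1% of all genes.

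Within Nfib-floxed mice, none of the 5 genes was called between metastases and lung tumors. Limma called 19 genes there, 0.123% of all genes. The changes, metastasis minus lung tumor, were -1.21 ± 0.95 for Nfix, -0.87 ± 0.68 for Mpdz, 0.36 ± 0.83 for Nfib, -0.35 ± 0.35 for Nfic and -0.03 ± 0.65 for Nfia, with limma adjusted p values between 0.739 and 0.995. The sign of Nfix turned to 0.18 without the metastasis of JHK1398, and that of Nfia to 0.26 under quantile normalization. Nfib was higher and Mpdz lower in both metastases than in all 3 lung tumors, 2 of 5 genes that did not overlap, beside 22.5% of all genes.

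Whether the genotype difference itself differed between metastases and lung tumors was tested as an interaction. None of the 5 genes was called, against 90 of all genes, or 0.581%. Mpdz came closest, at -4.53 ± 0.96 (limma adjusted p = 0.0890). It was -5.82 without the metastasis of JHK1373, which left a single RPR2 metastasis. Nfix stood at -3.73 ± 1.34 (adjusted p = 0.351). Nfib stood at -1.24 ± 1.17 (adjusted p = 0.860) and at 0.42 without the RPR2 metastasis of JHK1394. Nfic (-0.42 ± 0.49) and Nfia (-0.32 ± 0.92) had adjusted p values of 0.901 and 0.968.

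Averaged over both tissues, with mouse as a random effect, Mpdz was lower in Nfib-floxed tumors by -3.19 ± 0.50 on the log2 scale (limma adjusted p = 0.0229), 1 of 91 genes called, or 0.587%. Its adjusted p lay between 0.0504 and 0.0612 when the metastasis of JHK1398 or JHK1394 or the lung tumor of JHK997, JHK1399, JHK1373 or JHK1548 was left out, with changes between -3.32 and -2.53. It was 0.0548 without the filter on low levels. Nfib (-1.57 ± 0.61, limma adjusted p = 0.289), Nfix (-1.54 ± 0.67, adjusted p = 0.354), Nfic (-0.20 ± 0.25, adjusted p = 0.789) and Nfia (-0.02 ± 0.47, adjusted p = 0.988) were not called. The change of Nfib was -0.72 without the metastasis of JHK1394.

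**Figure D2:**
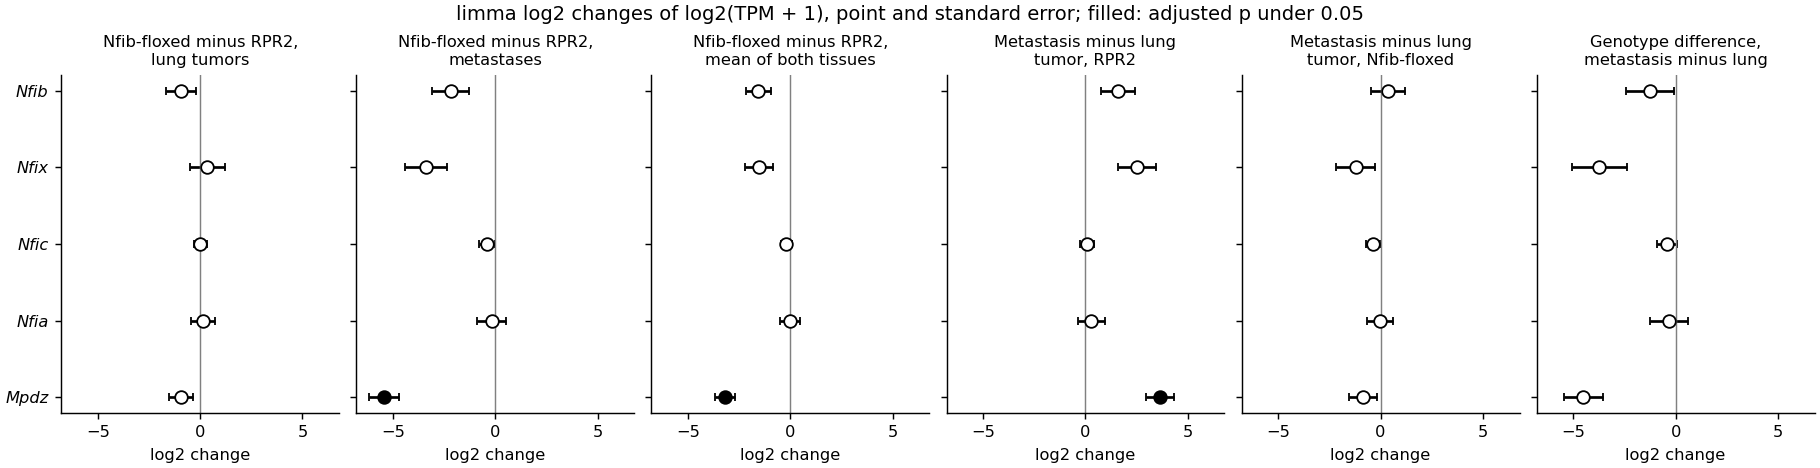
Log2 change of each gene with its standard error in the 6 comparisons (horizontal axis, difference of log2(TPM + 1)), with filled points where the adjusted p was under 0.05. Mpdz was called between the genotypes in metastases (-5.46), over both tissues (-3.19) and between RPR2 metastases and RPR2 lung tumors (3.66), and no family gene was called.

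The metastasis and lung tumor of the same mouse were also compared, with a single library on each side. The deviations of these pairs from their group means correlated at only -0.02 to 0.05 over genes. Pairing thus removed little difference between mice, and each ratio carries the spread of both tumors. Nfib in the metastasis was 1.21 times (JHK1398) and 1.56 times (JHK1399) its level in the lung tumor of the same Nfib-floxed mouse, against 0.736 times (JHK1373) and 22.7 times (JHK1394) in RPR2 mice. The RPR2 mice thus went opposite ways for Nfib. For Nfix the ratios were 0.224 (JHK1398) and 0.359 (JHK1399) in the Nfib-floxed mice, against 4.60 (JHK1373) and 10.9 (JHK1394) in RPR2 mice. For Mpdz they were 0.474 (JHK1398) and 0.673 (JHK1399) in the Nfib-floxed mice, against 3.30 (JHK1373) and 50.7 (JHK1394) in RPR2 mice. Nfix and Mpdz were thus lower in the metastasis of both Nfib-floxed mice and higher in the metastasis of both RPR2 mice. The share of all genes with this pattern is not given here, so it cannot be called particular to Nfix and Mpdz. For Nfic the ratios were 0.806 and 0.848 in Nfib-floxed mice (JHK1398, JHK1399), against 0.687 and 1.34 in RPR2 mice (JHK1373, JHK1394). For Nfia they were 0.896 and 1.01 in Nfib-floxed mice, against 3.29 and 0.472 in RPR2 mice.

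**Figure D3:**
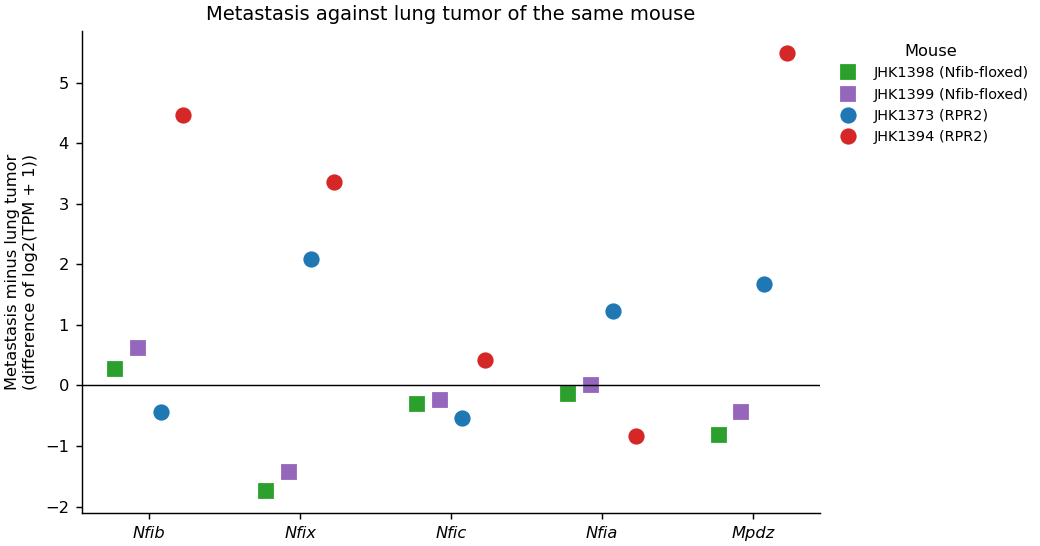
Metastasis minus lung tumor of the same mouse for each gene (vertical axis, difference of log2(TPM + 1)), with squares for Nfib-floxed and circles for RPR2 mice. Nfix and Mpdz were below 0 in both Nfib-floxed mice and above 0 in both RPR2 mice, and Nfib was above 4 only in JHK1394.

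Nfib and Mpdz share a stretch of chromosome 4, so its other genes were examined. Of 37 genes that start within 3 Mb of Nfib, 12 were among the genes tested. In the RPR2 metastasis of JHK1394, 10 of the 12 were at their highest level of all libraries, beside 14.9% of all genes tested. Mpdz, Nfib, Zdhhc21, Snapc3 and Psip1 reached at least 2 times the highest level in any other library, 5 of 12, beside 1.63% of all genes. This library was looked at because Nfib and Mpdz peak in it, and both are among the genes counted. Part of the excess of both counts over all genes was thus fixed in advance. Psip1, which encodes the chromatin-binding protein LEDGF, had 2392 TPM in this metastasis, against 151 to 776 TPM in the other 9 libraries. Zdhhc21, a palmitoyltransferase gene, had 114 TPM, against 5.24 to 44.0 TPM. Snapc3, a subunit of the complex that activates small nuclear RNA genes, had 129 TPM, against 15.8 to 48.2 TPM, and it overlaps Psip1. Cer1, a secreted inhibitor of NODAL and BMP signaling, at 7.42 TPM, and Sh3gl2, which encodes endophilin A1, at 15.2 TPM, were the 2 of 12 that were not at their highest.

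**Figure D4:**
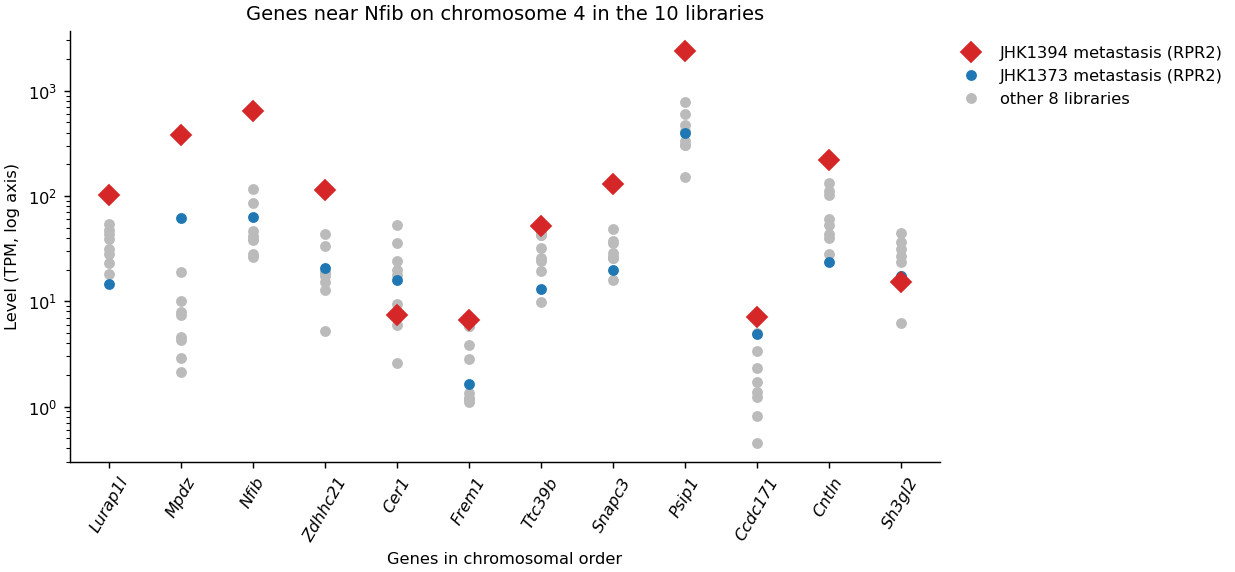
Levels in TPM (vertical log axis) of the 12 tested genes within 3 Mb of Nfib, in chromosomal order, with a diamond for the RPR2 metastasis of JHK1394, a blue point for that of JHK1373 and gray points for the other libraries. The diamond was the highest point for 10 of 12 genes, the exceptions being Cer1 and Sh3gl2.

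The metastasis of JHK1373, the other RPR2 metastasis, did not share this pattern. Its Mpdz was 62.0 TPM, above all libraries but that of JHK1394, while its Nfib (62.8 TPM), Psip1 (399 TPM) and Zdhhc21 (20.8 TPM) lay within the range of the lung tumors. Of the 12 genes, 9 (JHK1398) and 6 (JHK1399) were higher in the metastasis than in the lung tumor of the same Nfib-floxed mouse, against 3 (JHK1373) and 11 (JHK1394) in RPR2 mice. Over all genes tested, those shares were 55.4% (JHK1398) and 41.6% (JHK1399) in the Nfib-floxed mice, against 33.6% (JHK1373) and 49.8% (JHK1394) in RPR2 mice. Apart from Mpdz, none of the 12 genes was called by limma in any of the 6 comparisons, beside 0% to 5.61% of all genes.

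Chromosome 4 was then read in bins of 5 Mb from Nfib, a view chosen after the levels near Nfib had been seen. Each gene's value was its log2(TPM + 1) in the metastasis of JHK1394 minus its median over the other 9 libraries. The median of the 10 genes in the bin around Nfib was 1.95. It was 2.69 over 2 genes and 1.58 over 7 genes in the next 2 bins toward the centromere, and 1.15 over 19 genes in the next bin away from it. Beyond that, the bin from 7.5 to 12.5 Mb had a median of 0.09 over 7 genes, and the bin that holds Nfia -0.18 over 17 genes. On the side of the centromere, the bin from -17.5 to -12.5 Mb had a median of -0.28 over 6 genes and the bin from -22.5 to -17.5 Mb 0.86 over 26 genes. Farther away, medians reached 0.62 over 38 genes (57.5 to 62.5 Mb) and -0.77 over 53 genes (62.5 to 67.5 Mb). Over the 962 tested genes of the whole chromosome the median was 0.04, and for the other autosomes and chromosome X it lay between -0.06 and 0.14. Nfia itself, on the same chromosome, was not raised. DNA copy number was not analysed here, and the cause of the raised levels was not tested.

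**Figure D5:**
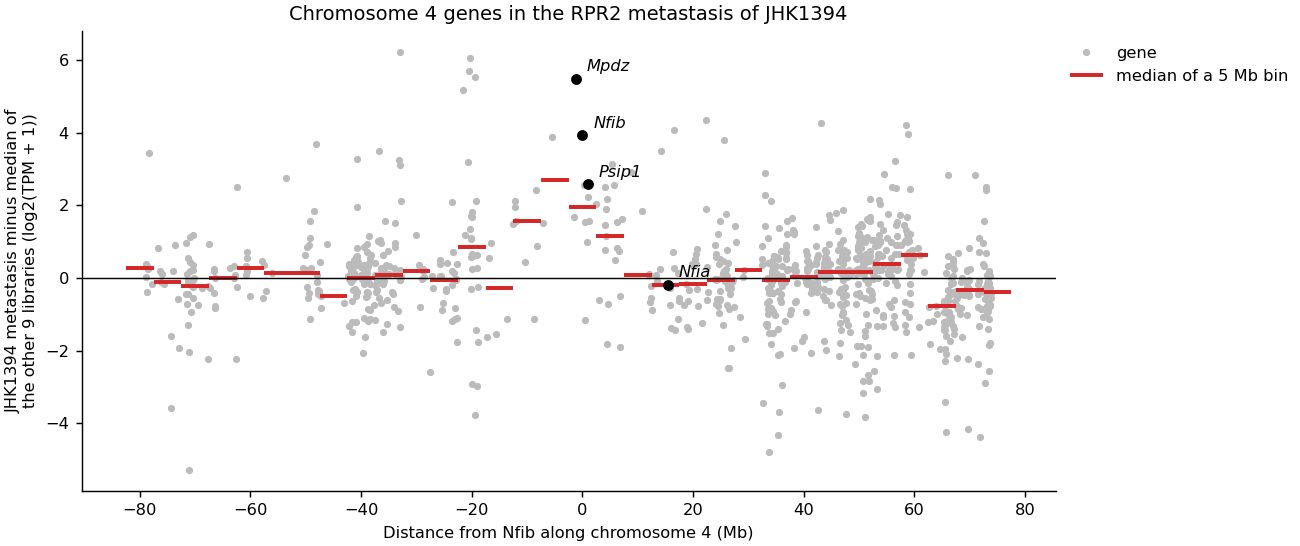
Level of each tested gene of chromosome 4 in the RPR2 metastasis of JHK1394 minus its median in the other 9 libraries (vertical axis, difference of log2(TPM + 1)) by distance from Nfib in Mb, with red lines at the medians of 5 Mb bins. Medians were above 1 in the 4 bins from -12.5 to 7.5 Mb and near 0 from 7.5 Mb up to the bin of Nfia.

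Across the 10 libraries, the levels of the 5 genes were related in part. The Pearson correlation of log2(TPM + 1) was 0.84 between Nfib and Mpdz and 0.49 without the metastasis of JHK1394. Between Nfix and Mpdz it was 0.72 and 0.41 without that library. Between Nfib and Nfix it was 0.55 and -0.12 without it. Nfic and Nfia ran against each other at -0.62, which was -0.67 without it. These correlations are descriptions over tumors of 4 groups, of which 4 mice gave a pair.

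The 3 genes whose levels were most like each member, among all genes tested, were listed by Pearson r over the 10 libraries. For Nfib they were Col7a1, a collagen of anchoring fibrils (0.949), Trim67, a tripartite motif gene (0.939), and Phox2a, a homeodomain factor of autonomic neurons (0.937). Without the 2 libraries farthest from the median of Nfib, these values were 0.640, 0.692 and 0.884. For Mpdz they were Necab2, a neuronal calcium-binding protein gene (0.966), Mtss1l, which encodes a membrane-bending protein (0.965), and Dock4, a guanine nucleotide exchange factor gene (0.963). Necab2 had 1.06 and 1.84 TPM in Nfib-floxed metastases, against 9.36 and 111 TPM in RPR2 metastases (JHK1373, JHK1394). For Nfix they were Xlr, an X-linked lymphocyte-regulated gene (0.951), Rbfox3, a neuronal splicing factor gene (0.933), and Thumpd2 (0.928). All 9 of these genes had their highest level in the metastasis of JHK1394, beside 14.9% of all genes tested. Nfib, Mpdz and Nfix peak in that library, so choosing genes by likeness to them favored this, and the count adds no support. Without the 2 libraries farthest from the median of Mpdz, its 3 values were 0.864, 0.752 and 0.666. Those of Nfix, without its 2 farthest, were 0.824, 0.793 and 0.751. For Nfic they were Micall1, an endocytic recycling adaptor gene (0.953), Pcdh1, a protocadherin gene (0.928), and Kif27, a kinesin gene (0.924). For Nfia they were Clvs1, a clathrin vesicle protein gene (0.916), Rpl23, a ribosomal protein gene (0.892), and Zfp57, a zinc finger gene of imprint maintenance (0.877).

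Genes known as targets of nuclear factor I proteins were read from a list of 20, of which 16 were tested. None of the 16 was called in any of the 6 comparisons, beside 0% to 5.61% of all genes. With shares this low, the absence of calls does not show that the targets were unchanged. In metastases, 5 of 16 had a change above 0 and the median was -0.21, Nfib-floxed minus RPR2, beside 0.00 over all genes. In lung tumors, 9 of 16 were above 0 and the median was 0.08, beside -0.10. Fabp7, a brain fatty acid-binding protein gene and NFI target in human glioma cells, had 2.63 and 4.395 TPM in Nfib-floxed metastases, against 12.8 and 11.1 TPM in RPR2 metastases (-1.55 ± 0.50, limma adjusted p = 0.168). Ezh2, the Polycomb methyltransferase gene, had 97.8 and 105 TPM in Nfib-floxed metastases, against 214 and 271 TPM in RPR2 metastases (-1.24 ± 0.43, adjusted p = 0.210). Of the 16 targets, 10 did not overlap between the genotypes in metastases, 4 higher and 6 lower in Nfib-floxed mice, beside 45.8% of all genes. In lung tumors the smallest raw p values belonged to Pparg, a nuclear receptor gene (1.19 ± 0.53, adjusted p = 0.625), and Fabp7 (-0.87 ± 0.41, adjusted p = 0.628).

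Between metastases and lung tumors, the target genes with the smallest raw p included Sftpc, the surfactant protein C gene of alveolar cells. It had 1.04 and 4.60 TPM in Nfib-floxed metastases, against 73.3 to 2357 TPM in Nfib-floxed lung tumors (-7.12 ± 1.78, limma adjusted p = 0.242). In RPR2 mice it had 1.29 and 30.3 TPM in metastases, against 97.7 to 5061 TPM in lung tumors (-5.71 ± 1.78, adjusted p = 0.0990). The alveolar type 2 markers, Sftpc among them, summed to 29.8 to 51.5 TPM in Nfib-floxed metastases and 165 to 3062 TPM in Nfib-floxed lung tumors, and their part in this difference was not tested. Aldh1l1, a folate enzyme gene of astrocytes and liver, had 11.5 and 14.98 TPM in RPR2 metastases, against 1.57 to 3.78 TPM in RPR2 lung tumors (2.08 ± 0.62, adjusted p = 0.0842). The 12 hepatocyte markers, all higher in RPR2 metastases, summed to 9342 to 9657 TPM there and to 57.5 to 289 TPM in RPR2 lung tumors, and their part in this difference was not tested. Hes1, a Notch effector gene, had 11.1 and 11.2 TPM in Nfib-floxed metastases, against 19.6 to 56.4 TPM in Nfib-floxed lung tumors (-1.68 ± 0.58, adjusted p = 0.402).

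Of 9 partners and upstream factors of nuclear factor I proteins, 6 were tested. None was called in any comparison, beside 0% to 5.61% of all genes. Foxa2, a forkhead factor gene of lung and liver, had 225 and 245 TPM in Nfib-floxed metastases, against 187 and 209 TPM in RPR2 metastases (0.25 ± 0.30, adjusted p = 0.871). In lung tumors Foxa2 had 162 to 259 TPM in Nfib-floxed and 252 to 296 TPM in RPR2 mice (-0.45 ± 0.25, limma adjusted p = 0.650). Sox9, which acts upstream of Nfia in glia, was at or below 3.94 TPM in every library, and its difference in metastases was -0.95 ± 0.75 (adjusted p = 0.724).

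Genes whose proteins join MPDZ at junctions, or that share its binding partners, were read from a list of 23 symbols, 18 of them tested. Crb3, which encodes a small apical polarity protein, had 22.1 and 38.6 TPM in Nfib-floxed metastases, against 2.30 and 2.08 TPM in RPR2 metastases. It was the only one of the 18 called there, beside 2.04% of all genes (3.25 ± 0.55, limma adjusted p = 0.0172), and its direction was opposite to that of Mpdz. Without the metastasis of JHK1398 its change was 3.63 (adjusted p = 0.0482). The call was lost without the metastasis of JHK1399 (2.86, adjusted p = 0.0780), JHK1373 (3.30, adjusted p = 0.0680) or JHK1394 (3.20, adjusted p = 0.106), and when the 2 groups were fitted alone (adjusted p = 0.151). It was also the only one called in the interaction, beside 0.581% of all genes (3.83 ± 0.71, adjusted p = 0.0446), a call that was lost without 9 of the 10 libraries, with the Nfib-floxed lung tumor of JHK1398 as the exception, at 3.43 to 4.34. In RPR2 mice, 3 of the 18 were called lower in metastases than in lung tumors and none was called higher. Of all genes, 5.61% were called there, 553 of 869 lower. Of the 18, 4 had a change above 0. The largest of these was Jam3, with 61.1 and 63.5 TPM in RPR2 metastases, against 2.54 to 15.4 TPM in RPR2 lung tumors. Its change was 2.87 ± 0.77, just short of a call (limma adjusted p = 0.0557). Crb3 had 2.30 and 2.08 TPM in RPR2 metastases, against 59.1 to 95.9 TPM in RPR2 lung tumors (-4.53 ± 0.50, adjusted p = 0.00121). F11r, which encodes the junctional adhesion molecule JAM-A, had 19.0 and 35.8 TPM, against 123 to 176 TPM (-2.38 ± 0.36, adjusted p = 0.00476). Patj, the paralog of Mpdz, had 6.78 and 8.86 TPM, against 24.7 to 57.9 TPM (-2.12 ± 0.50, adjusted p = 0.0328). Crb3 was called in this comparison without each library in turn (-4.68 to -4.33). F11r narrowly lost its call without the metastasis of JHK1373 (-1.94, adjusted p = 0.0505). Patj lost it without the metastasis of JHK1373 (-1.95, adjusted p = 0.219) or JHK1394 (-2.29, adjusted p = 0.141), without the lung tumor of JHK1373 (-2.15, adjusted p = 0.0800) or JHK1548 (-1.81, adjusted p = 0.102), with mouse as a fixed block (-1.81, adjusted p = 0.146) under quantile normalization (-1.87, adjusted p = 0.0530) and with no filter on low levels (adjusted p = 0.0710). The median of the 18 was -0.58 in that comparison, beside -0.15 over all genes.

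In the same comparison of RPR2 mice, the 5 club cell markers were all lower in every metastasis than in every lung tumor, at 22.9 to 197 TPM in metastases and 9211 to 60565 TPM in lung tumors. The alveolar type 2 markers were likewise all lower, at 20.4 to 60.3 TPM in metastases and 261 to 7743 TPM in lung tumors. Of 5 alveolar type 1 markers, 3 were lower and 1 was higher. Of 11 neuroendocrine markers, 6 were lower and none was higher. The part of these cells in the levels of Crb3, F11r and Patj was not tested. None of the 18 MPDZ partners was called between the genotypes in lung tumors, in Nfib-floxed metastases against lung tumors, or over both tissues. Of all genes, 0%, 0.123% and 0.587% were called in these comparisons. The smallest raw p values there belonged to Cldn8 (-1.38 ± 0.51, limma adjusted p = 0.595) in lung tumors, to Cldn5, the endothelial claudin gene (-2.77 ± 0.61, adjusted p = 0.196), in Nfib-floxed metastases and to Amot, the angiomotin gene (-1.47 ± 0.38, adjusted p = 0.124), over both tissues. Cldn5 is also 1 of the 8 endothelial markers, of which 6 were lower in both Nfib-floxed metastases than in the 3 Nfib-floxed lung tumors (sums of 45.0 to 47.7 TPM in metastases and 108 to 147 TPM in lung tumors), and their part in its difference was not tested.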

How the data were processed

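RNA from 10 tumors was sequenced after polyA selection, with libraries from a NEBNext Ultra II kit, per the labels' protocols. The submitters' processing notes name bcl2fastq 2.20, Salmon 0.12.0, R 4.1.0 and build GRCm38. Salmon's annotation and settings were not given in the sources used here. Gene levels were deposited as TPM, with a sum of 1000000 in each library, so the sequencing depth is unknown and no counting interval is given. Every column was used, and no library pair was identical.

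From log2(TPM + 1), limma 3.58.1 (R 4.3.3) gave two-sided tests with moderated variances and a mean trend, over genes whose mean reached 1 TPM. A single model of 4 groups treated the metastasis and lung tumor of a mouse as independent, except that the mean genotype effect had mouse as a random effect (correlation 0.0509). The labels' mouse tags pair 4 metastases with lung tumors, and the deviations of these pairs from their group means correlated at -0.02, -0.01, 0.04 and 0.05 over genes. Replicates of a group are separate mice. The model was also run on simulated data, with independent noise in each library and genes changed only in Nfib-floxed metastases. That setting had no pairs and no single outlying library, so it does not check the model for such data. Its outcome is not given here.

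The members, gene lists, markers and tests were chosen with earlier results of these data known. Genes named beside the members were the 3 most like each member by Pearson r, genes within 3 Mb of Nfib, and called genes of the lists, or the 2 with the smallest raw p where none was called, of which the text gives a part, and some genes are not reported here. Predicted genes and pseudogenes were passed over. Positions and coding sequences came from GENCODE, in which 35028 of 35288 gene identifiers were found. Other steps ran in Python 3.11.15 (numpy 2.4.6, pandas 2.3.3, scipy 1.17.1, and for plots matplotlib 3.10.9). Alternatives were other pseudocounts (0.1 and 5), no filter and a filter of 5 TPM, quantile normalization, rescaling without the markers of other cell types, a mouse block (random, or fixed), a fit to only the 2 groups compared, and omission of each library. Alternatives for Crb3, F11r and Patj were added after seeing the data.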

Additional observations from a re-analysis of the deposited data

Results flagged for a closer look

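The change of Nfix between metastasis and lung tumor differed in direction between the genotypes. It was negative in both Nfib-floxed mice (log2 differences of -1.74 and -1.43) and positive in both RPR2 mice (2.09 and 3.37). The interaction was -3.73 ± 1.34, which limma did not call (adjusted p = 0.351). Mpdz showed the same pattern, with log2 differences of -0.81 and -0.44 in Nfib-floxed mice and of 1.67 and 5.49 in RPR2 mice. Its interaction was -4.53 ± 0.96 (adjusted p = 0.0890), also not called. How many of all genes share this pattern of signs is not given here.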

How the results depend on the processing

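Of 534 alternative values for the 30 changes of the 5 genes, 489 kept their direction and their side of the threshold, 30 turned direction, 11 lost a call and 4 gained one. The genotype change of Mpdz in metastases was called without each library in turn, between -6.76 and -4.17, but not in a fit of those 2 groups alone (-5.46, adjusted p = 0.185). Its change in RPR2 metastases against lung tumors lost its call in that kind of fit (3.66, adjusted p = 0.0503) and without the metastasis of JHK1394 (2.36, adjusted p = 0.110), with 4.95 as the highest value without 1 library. Its mean genotype effect lost its call with no filter on low levels (-3.19, adjusted p = 0.0548). It also lost it without the metastasis of JHK1398 (adjusted p = 0.0554) or JHK1394 (0.0551), the Nfib-floxed lung tumor of JHK997 (0.0505) or JHK1399 (0.0507), or the RPR2 lung tumor of JHK1373 (0.0504) or JHK1548 (0.0612), at -3.86 to -2.53 over all 10. Its interaction ran between -5.82 and -3.23 and was called without the metastasis of JHK1373 (adjusted p = 0.0418). Where a group is left with 1 sample, that sample is assumed to vary like the others. The cause of these shifts was not tested.

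Pairing by mouse was tried as a replicate block. With mouse as a fixed replicate block, RPR2 metastases against lung tumors gave 3.58 for Mpdz (adjusted p = 0.0697), 2.73 for Nfix (adjusted p = 0.0378), -0.055 for Nfic and 530 genes called. It changed no other call of the 5 genes, nor did a random block. The RPR2 values with the fixed block rest on the pairs of JHK1373 and JHK1394 alone.

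Small changes turned sign. Nfia turned to 0.0103 with a pseudocount of 5 and to 0.05 under quantile normalization in the mean genotype effect, and to 0.26 under quantile normalization in Nfib-floxed metastases against lung tumors. Nfic in lung tumors turned to -0.0055 on rescaling without markers. Quantile normalization moved the median of all genes to 0.05 from -0.15 in RPR2 and to 0.07 from -0.05 in Nfib-floxed metastases against lung tumors. Leaving out 1 library, the genotype change in lung tumors ran between -0.28 and 0.52 for Nfia, -0.12 and 0.18 for Nfic and -0.47 and 0.77 for Nfix. In metastases it ran between -0.91 and 0.55 for Nfia, -3.85 and -0.52 for Nfib and -0.83 and 0.0027 for Nfic. In RPR2 metastases against lung tumors, the range was -0.12 to 0.69 for Nfia, -0.069 to 3.27 for Nfib and -0.35 to 0.48 for Nfic. In Nfib-floxed metastases against lung tumors it was -0.76 to 0.70 for Nfia and -2.60 to 0.18 for Nfix. For the interaction it was -1.05 to 0.42 for Nfia and -2.91 to 0.42 for Nfib, and for the mean genotype effect -0.37 to 0.33 for Nfia and -0.41 to 0.013 for Nfic.

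Counts of genes called moved more. With a pseudocount of 0.1, 1 gene was called in lung tumors and 40 in Nfib-floxed metastases against lung tumors. Nfib-floxed metastases against lung tumors gave 1 with a pseudocount of 5, 2 with no filter and 0 in a fit of its groups alone. The metastasis genotype gave 193 with a filter of 5 TPM and 0 in a fit of its groups alone. Leaving out 1 library, counts ran from 0 to 1 in lung tumors, 110 to 392 in metastases, 243 to 1178 in RPR2 and 0 to 35 in Nfib-floxed metastases against lung tumors, 24 to 124 for the interaction and 20 to 158 for the mean genotype effect. The 1 gene in lung tumors was called without the RPR2 tumor of JHK1373. Nfia, with a mean below 5 TPM, has no value under that filter. The interaction of Crb3 lost its call with a pseudocount of 5 (adjusted p = 0.105), with no filter (0.0918), under quantile normalization (0.0987) and on rescaling without markers (0.0594). Depth is unknown, so it cannot be said which low levels it limits.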
